A study of Caenorhabditis elegans with 3 samples.

Results

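The transcripts of 10 oocyte and maternal regulator genes were followed on 3 Affymetrix arrays of young adult Caenorhabditis elegans hermaphrodites. The genes are mex-3, mex-5, mex-6, pos-1, oma-1, oma-2, puf-5, puf-11, glp-1 and gld-1, and they were taken by name. Every probe set that the array's annotation assigns to one of these symbols was read, which gave 16 probe sets for the 10 genes, out of 17138 genes with a probe set of their own. Of the 10 genes, 9 encode RNA-binding proteins, and glp-1 encodes a Notch-type receptor whose maternal messenger RNA several of the other proteins bind. All worms were wild-type N2 hermaphrodites, raised on agar with bacteria as food and used as young adults from age-synchronized cultures. The 0 h group was untreated, and the 4 h and 24 h groups were kept in K-medium, a salt solution for toxicity tests, with multiwall carbon nanotubes (hollow fibres of rolled carbon) at 1 mg/L. Each group was 1 array of total RNA from whole worms, so there were no replicates, no value has an error between worms or cultures, and no test between groups was possible. Unexposed worms of the later times were not analysed here, so exposure, time in the medium and age cannot be told apart.

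In the C. elegans hermaphrodite gonad, germ cells divide at the distal end, enter meiosis and mature into oocytes one after another. Transcription stops in late oocytes and stays off in the first embryonic cells. The messenger RNAs of this period are therefore made earlier, stored, and switched on or off by RNA-binding proteins that recognise their untranslated regions. A young adult carries growing oocytes and, once laying begins, embryos in the uterus, and both hold these maternal transcripts. In RNA of whole worms, fewer germ cells or embryos and less transcript per cell cannot be told apart.

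Values are normalized intensities as deposited. A ratio is the log2 ratio of 2 intensities after 32 was added to each, and a gene was called higher or lower where the ratio reached 2-fold, as measured by its brightest probe set. All 16 probe sets were annotated to 1 gene, passed the filter on low values and lay on every array above the brightest control for absent transcripts (67.83). Of the 16, 8 carry the manufacturer's marks _s_ or _x_, which warn that other transcripts can bind. Brightness was not compared between genes, because probe sets differ in their affinity.

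Most of the 10 genes stayed within 2-fold at both times. At 4 h against 0 h none of the 10 passed 2-fold in either direction, beside 4.97% of the 8634 genes measured. At 24 h against 0 h, mex-3 and puf-11 were lower, 2 of 10 beside 7.96% of all genes. At the same time 0 of 10 were higher, beside 5.32%. The median ratio of the 10 genes was -0.07 at 4 h and -0.35 at 24 h, and the median of all genes was 0.00 at both times. All these directions are relative to the rest of each array's genes. Scaling on the 9 hybridisation controls shifted the median of all genes by 0.43 at 4 h and 0.61 at 24 h. The medians of the 10 genes were then 0.38 and 0.31 (turned above 0), or -0.05 and -0.30 relative to all genes. The directions also depended on the probe set chosen. With the dimmest probe set of each gene the medians were 0.21 and 0.14, or 0.20 and 0.12 relative to all genes. At 24 h against 4 h none of the 10 passed 2-fold, beside 5.5% of all genes, and their median was -0.21. The comparisons share arrays and are not independent of each other.

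With a threshold of 1.5-fold at 24 h against 0 h, mex-6 joined mex-3 and puf-11 on the lower side, 3 of 10 beside 17.3% of all genes. On the higher side stood glp-1, 1 of 10 beside 14.4%. At 24 h against 4 h, puf-11 alone passed 1.5-fold, on the lower side, beside 9.24% of all genes.

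**Figure D1:**
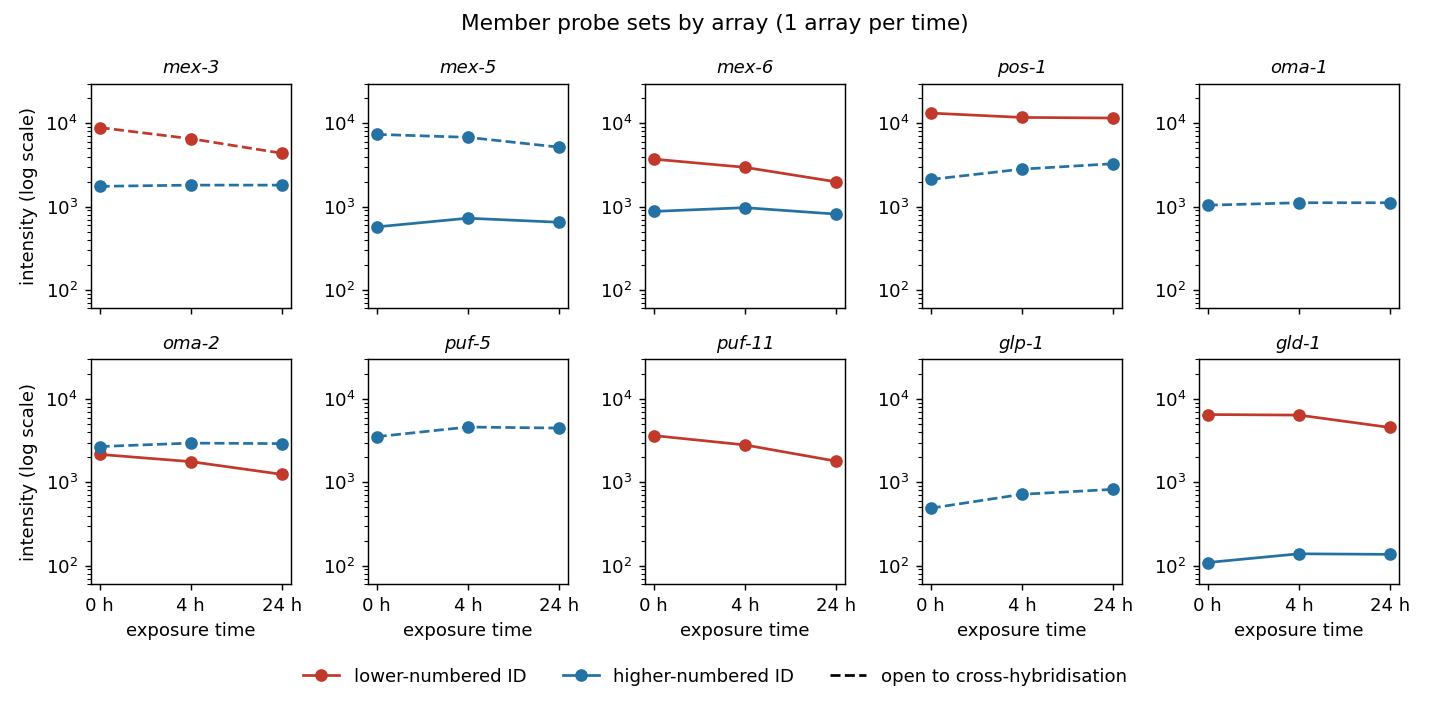
Normalized intensity (log axis) of the 16 probe sets of the 10 genes at 0 h, 4 h and 24 h, with 1 array per time. Red lines are probe sets with lower-numbered IDs, blue lines those with higher-numbered IDs, and dashed lines those open to cross-hybridisation; all 6 red lines descend from 0 h to 24 h, and 1 of 10 blue lines, in mex-5, does so at each step.

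The germ line regulators gld-1 and glp-1 act first along the gonad. GLP-1 is the receptor through which the somatic distal tip cell keeps germ cells dividing, and in the embryo its maternal messenger RNA is translated in anterior cells. Its only probe set, 191458_s_at, was at 489.6 at 0 h, 718.4 at 4 h and 824.2 at 24 h. The value was higher at each later time, with ratios of 0.52 at 4 h and 0.72 at 24 h, short of 2-fold. Scaled on the hybridisation controls, the 24 h ratio was 1.36, past 2-fold. The median of all genes was then 0.61, and 21.97% of them were higher by 2-fold.

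GLD-1, a KH-domain protein of the STAR family, promotes meiosis and oocyte development and represses translation of glp-1 and of many oocyte messenger RNAs. Probe set 174247_at of gld-1 was at 6524 at 0 h, 6424 at 4 h and 4561 at 24 h. It was almost level between 0 h and 4 h (ratio -0.02) and lower at 24 h (-0.51). The other probe set of gld-1, 193805_at, was dim throughout, at 109.0, 138.8 and 136.6, and its ratios were 0.28 at 4 h and 0.26 at 24 h. The 24 h ratios of these probe sets thus differed in sign, by 0.77.

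MEX-3, a KH-domain protein, represses the homeobox messenger RNA pal-1 in the anterior of the early embryo and helps maintain germ cell identity. Probe set 175599_s_at of mex-3 was at 8911 at 0 h, 6542 at 4 h and 4378 at 24 h. This was the lowest 24 h ratio of the 10 genes, -1.02, with -0.44 at 4 h. The second probe set, 189002_s_at, was at 1755 at 0 h and at 1814 at both later times, to the last deposited digit, and its ratio was 0.05 at 4 h and 24 h. The lower call of mex-3 therefore came from 1 of its 2 probe sets, and both are open to cross-hybridisation.

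MEX-5 and MEX-6 are a closely related pair of proteins with CCCH zinc fingers that form the anterior-posterior difference of the embryo's cytoplasm and keep germ plasm proteins out of the anterior. For mex-5, probe set 194215_x_at was at 7379, 6797 and 5183 (ratios -0.12 at 4 h and -0.51 at 24 h), and probe set 193943_at at 571.5, 726.5 and 649.5 (0.33 and 0.18). For mex-6, probe set 175381_at was at 3720, 2968 and 1988 (-0.32 and -0.89), and probe set 192002_at at 876.1, 972.4 and 813.9 (0.15 and -0.10). In both genes the brighter probe set was lower at each later time, and the dimmer one was highest at 4 h. The 24 h ratios within a gene differed by 0.68 for mex-5 and 0.79 for mex-6.

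POS-1, another CCCH zinc finger protein, is needed for posterior cell fates and represses glp-1 messenger RNA in posterior cells. Probe set 175810_at of pos-1 was at 13286, 11784 and 11593, with ratios of -0.17 at 4 h and -0.20 at 24 h. Probe set 192079_s_at went the other way, at 2123, 2822 and 3275, with ratios of 0.41 and 0.62. Neither reached 2-fold, and their 24 h ratios differed by 0.81.

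OMA-1 and OMA-2 are redundant CCCH zinc finger proteins required for oocyte maturation, and they are degraded soon after fertilisation once the kinase MBK-2 has phosphorylated them. The only probe set of oma-1, 189867_s_at, was at 1040 at 0 h and 1114 at both later times (ratio 0.10). For oma-2, probe set 189988_s_at was at 2692, 2962 and 2920 (0.14 and 0.12), and probe set 173110_at at 2168, 1774 and 1247 (-0.28 and -0.78). The _s_ probe sets of both genes were level, and the other probe set of oma-2 was lower at each later time. Here the lower values came from the dimmer probe set, unlike in the other 5 genes with a second probe set.

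PUF-5 and PUF-11 are Pumilio-family proteins that repress translation in oogenesis and the early embryo. PUF-5 acts together with PUF-6 and PUF-7, and PUF-11 with its near-identical relative PUF-3. The only probe set of puf-5, 194082_s_at, was at 3536, 4616 and 4488, with ratios of 0.38 at 4 h and 0.34 at 24 h. The only probe set of puf-11, 175574_at, was at 3646, 2816 and 1799. It was lower at each later time, with ratios of -0.37 at 4 h and -1.01 at 24 h. Its relative puf-3 was at 1658, 2161 and 2481 (0.38 and 0.57), the opposite direction, and its probe set has a higher-numbered ID, while that of puf-11 is lower-numbered. The gene puf-7 was at 4121, 3539 and 2961 (-0.22 and -0.47). Among such near-identical genes a probe set can bind the transcripts of both, so their separate values are uncertain.

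**Figure D2:**
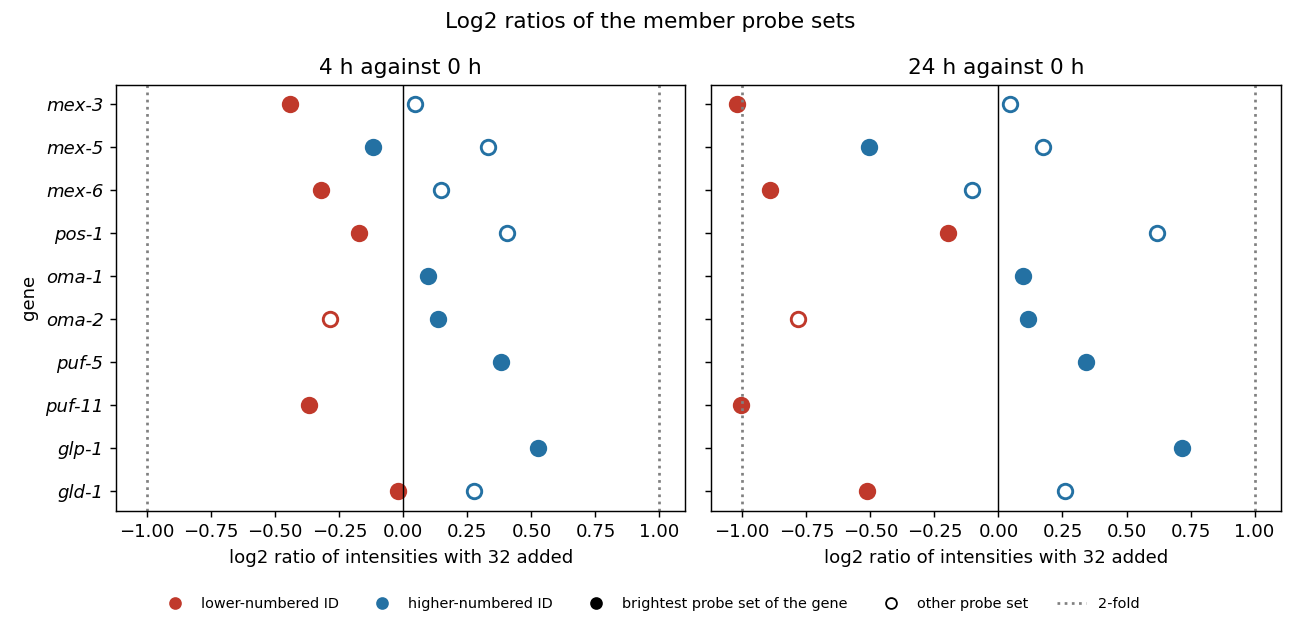
Log2 ratios at 4 h and 24 h against 0 h for every probe set of the 10 genes, with dotted lines at 2-fold. Filled circles are the brightest probe set of a gene; all 6 probe sets with lower-numbered IDs (red) lie below 0 in both panels, and 9 of 10 with higher-numbered IDs (blue) lie above 0 at 4 h and 8 of 10 at 24 h.

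The step from 4 h to 24 h was not the same in all of these genes. In gld-1, probe set 174247_at was level up to 4 h and all of its difference lay after it (24 h against 4 h, ratio -0.49). In pos-1, probe set 175810_at was lower by 4 h and level after it (-0.02). The ratios of mex-3 (-0.58), mex-6 (-0.57), puf-11 (-0.64) and mex-5 (-0.39) between 4 h and 24 h, each in the brightest probe set, went beyond their ratios between 0 h and 4 h, over a longer interval. For glp-1 the early step (0.52) was the larger and the later one was 0.19, and for puf-5 the later one was -0.04. Of the brightest probe sets, 8 of 10 had a ratio below 0 at 24 h against 4 h, 1 was above and 1, that of oma-1, was tied at the same deposited value. Over all genes 50.6% were below 0 and 38.4% above.

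Against 0 h, the direction of a ratio among the 10 genes went with the probe set's number. The array's probe sets fall into a lower-numbered series, with IDs from 171720 to 175999, and a higher-numbered one, from 176000 to 194267. This split was chosen after the values were seen. In the annotation table, 48.3% of the lower series carry a sequence accession and 0.46% of the higher. Of the 16 probe sets, 6 belong to the lower series and 10 to the higher. At 24 h the lower series had ratios from -1.02 to -0.20 (median -0.84), and the higher from -0.51 to 0.72 (median 0.15). The sign did not separate them at 24 h against 4 h: 6 of 6 ratios of the lower series were below 0, and of the higher series 6 were below, 2 above and 2 at 0. The ranges at 24 h against 0 h overlap only through mex-5, whose probe set 194215_x_at (-0.51) is in the higher series.

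For 5 of the genes, mex-3, mex-6, pos-1, oma-2 and gld-1, the annotation assigns a probe set of each series to the gene. Whether both read the same form or stretch of its transcripts was not tested. In 5 of 5 the lower-series ratio was below the higher-series ratio, by 0.77 to 1.07 at 24 h and by 0.30 to 0.58 at 4 h. The same difference ran through the array. Over the 1478 genes with both series, it averaged -0.52 at 24 h (SD 0.44 across genes), and it was below 0 in 91.3% of them. At 4 h it averaged -0.25 (SD 0.25) and was below 0 in 88.4%. In the 197 genes whose lower-series probe set was the dimmer, the 24 h average was -0.44. A 24 h difference of -0.77 or less, as in these 5 genes, was found in 27.9% of the 1478.

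**Figure D3:**
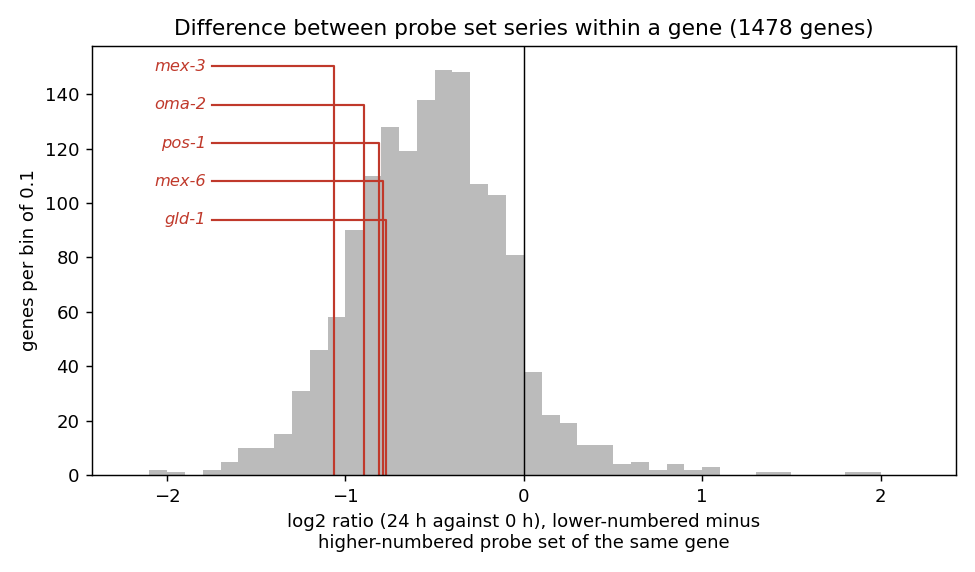
Histogram over 1478 genes of the difference in log2 ratio (24 h against 0 h) between the lower-numbered and the higher-numbered probe sets of the same gene. Most genes lie below 0 (mean -0.52), and the red lines mark gld-1, mex-6, pos-1, oma-2 and mex-3, from -0.77 to -1.07, on the left side of the distribution.

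Both genes called lower at 24 h, mex-3 and puf-11, were measured in the lower series, and puf-11 has no probe set in the higher one. When each ratio was taken relative to the median of its own series, 0 of 10 genes passed 2-fold at 24 h. Of all genes, 5.18% were then higher and 7.81% lower, and the median of the 10 was -0.22. The ratios of mex-3 and puf-11 were then -0.88 and -0.87, against -1.02 and -1.01 before, so the calls, which lay close to the threshold, were lost through a small shift. The actin, GAPDH, ubiquitin and catalase control transcripts are each read near both ends, and in 4 of 4 the 5′ signal gained on the 3′ signal over time. The median gain (log2) was 0.32 at 4 h and 0.56 at 24 h, both against 0 h. Whether this moved the ratios of these genes was not tested.

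Other regulators of stored messenger RNA had values in the same range. The list of 23 further oocyte and maternal RNA regulators, of which 20 were measured, had 0 genes higher and 0 lower at either time, with medians of -0.06 at 4 h and -0.30 at 24 h. The zinc finger gene mex-1 was at 4314, 3574 and 2300 (24 h ratio -0.90), the lowest of the list by brightest probe set. The zinc finger gene pie-1, which keeps the embryonic germ line transcriptionally silent, was at 1642, 1391 and 1104 (-0.56). Both were measured in the lower series. By the same measure the highest was puf-8 in the higher series, at 740.2, 1119 and 1332 (0.82). For gld-3, the brightest probe set was at 1417, 1276 and 1034 (-0.44). Its second lower-series probe set was at 1566, 1217 and 514.6 (-1.55), and a dim higher-series one was at 69.04, 94.85 and 98.74 (0.37). The series did not set the sign in every gene of this list, since lin-41 in the lower series was at 515.2, 599.8 and 828.5 (0.65), and nos-2 in the higher at 1646, 1546 and 1313 (-0.32). For spn-4, an RNA-binding regulator of early cell fate, the probe sets gave 7701, 6479 and 5043 in one case and 5701 on all 3 arrays in the other.

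Of 12 measured genes of germ line proliferation and sex determination, 0 passed 2-fold at either time (24 h median -0.11). Of 12 measured genes of the Notch pathway, in which glp-1 acts, none passed 2-fold either (24 h median -0.08). The other Notch receptor gene, lin-12, was at 144.4, 158.6 and 191.8 (24 h ratio 0.34). The gene lag-1, for the transcription factor that acts with the receptor, was at 2652, 2415 and 1878 (-0.49) in one probe set and at 428.4, 534.8 and 419.0 in the other (-0.03).

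Of 13 measured genes for embryo polarity and the kinases that act on maternal proteins, 1 was lower at 24 h, the Polo-like kinase gene plk-2 (median of the list -0.31). Its lower-series probe set was at 1029, 856.8 and 483.0 (ratio -1.04) and its other probe set at 641.2, 743.8 and 745.7 (0.21). The kinase gene mbk-2, whose product marks OMA-1 and OMA-2 for degradation, was at 5352, 4390 and 3887 in its brightest probe set (-0.46). Its other probe sets disagreed, at 1724, 1347 and 745.2 (-1.18) and at 157.3, 185.9 and 202.0 (0.31). None of 15 oocyte maturation genes and none of 12 P granule genes passed 2-fold at 24 h, with medians of -0.06 and -0.03. The yolk receptor gene rme-2, expressed in oocytes and repressed earlier by GLD-1, was at 1770, 2210 and 2352 (0.40). Of 16 meiosis genes, plk-2 again was lower, and the median was -0.02.

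Of 12 maternal messenger RNAs listed as targets of maternal regulators, 2 were lower at 24 h and 0 higher (median -0.32). The gene skn-1, for a transcription factor of early endoderm and mesoderm fate that in adults controls detoxification, was at 1617, 1073 and 629.8 (-1.32). Its lower-series probe set gave a like course, 1395, 1001 and 676.7 (-1.01), and a dim probe set was level, at 63.30, 63.30 and 66.03. The gene zif-1, which encodes an adaptor for the degradation of CCCH proteins in somatic cells and is repressed by OMA-1 in oocytes, was at 952.9, 715.1 and 457.8 (-1.01). The homeobox gene pal-1, a target of MEX-3 and GLD-1, was at 4957, 4818 and 4009 in its brightest probe set (-0.30). Its other probe sets went the opposite way, at 376.6, 583.8 and 802.4 (1.03) and at 860.8, 1111 and 990.6 (0.20). Over the 8 lists together, 0 of 104 genes were higher at 24 h and 3 were lower, beside the background shares given above. These counts use the brightest probe set of each gene, and other probe sets of listed genes passed 2-fold in both directions. Higher were those of cyb-3 (1.33), kin-19 (1.27), cdc-42 (1.18), epn-1 (1.13), ifet-1 (1.13) and pal-1 (1.03), all in the higher series. Lower were those of gld-3 (-1.55), mbk-2 (-1.18) and skn-1 (-1.01), all in the lower series.

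**Figure D4:**
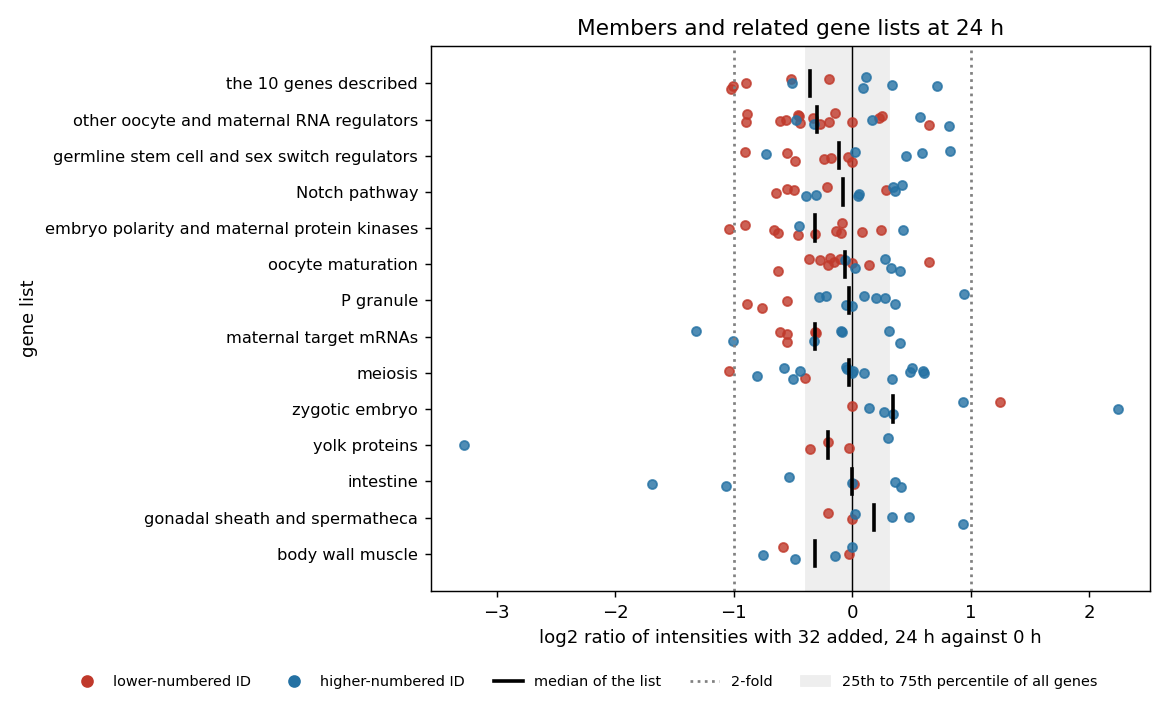
Log2 ratios at 24 h against 0 h of the genes measured in each list (dots, red for lower-numbered and blue for higher-numbered probe set IDs), with the list medians (black bars) and the 25th to 75th percentile of all genes (grey band, -0.39 to 0.31). The medians of the germ line lists lie between -0.35 and -0.02, with the red dots mostly to the left; the sperm list is not drawn.

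Markers of other cells in the worm moved with time as follows, and their part in the values above was not tested. Of 29 measured sperm genes, 28 were lower at 24 h against 0 h, beside 7.96% of all genes, and 0 higher (median -2.61). At 4 h 1, ssp-16, was lower (-1.10). The summed intensities were 202619, 147839 and 31826. The sperm genes with the largest 24 h ratios were read by _x_ probe sets, so values of different genes may share transcripts. Of 14 genes on the array listed as markers of the zygotic embryo, 7 were measured. Of these, 2 were higher at 24 h, beside 5.32% of all genes. They were hch-1, for the hatching enzyme, at 99.66, 326.4 and 591.5 (2.24, and 1.44 at 4 h), and ceh-22, at least 2.23-fold higher. Both were below the filter value of 103.9 at 0 h and passed through their later values. The listed genes left out by the filter had 24 h ratios from -0.19 to 0.10. The 7 measured genes had a median ratio of 0.34. Their summed intensities were 4028, 4481 and 4882, most of it from lin-26 at 3298, 3335 and 3298. That lin-26 probe set is in the lower series, and the one in the higher series was at 170.2, 283.5 and 367.3 (0.98). The summed intensities of 6 markers of the gonadal sheath and spermatheca were 3699, 4995 and 4845, with none past 2-fold. Of their 24 h ratios (median 0.18), 4 were above 0, all in the higher series, and 1 was below, in the lower series. The 5 measured yolk genes of the adult hermaphrodite intestine were bright on all arrays, summing to 84286, 78617 and 68877. Only vit-1 passed 2-fold, lower at 4 h (-1.29) and 24 h (-3.28). The median of the 5 was -0.05 at 4 h and -0.20 at 24 h, with 1 ratio above 0 at 24 h. The summed intensities of 7 intestine markers were 20013, 19727 and 20324. At 24 h, 3 of their ratios were above 0 and 4 below (median -0.0002). Of the 7, 2 were lower at 24 h, act-5 (-1.69) and pept-1 (-1.07). Both were also lower at 4 h against 0 h, with ratios of -1.96 for act-5 and -2.22 for pept-1, and pept-1 was higher at 24 h than at 4 h (1.15). Of 6 body wall muscle markers, 0 passed 2-fold at 24 h against 0 h by brightest probe set. Their 24 h median was -0.31, with 5 ratios below 0 and 0 above, and unc-89 was lower at 4 h (-1.05). The other probe sets of unc-89 had 4 h ratios from -0.43 to -0.06. A dimmer probe set of unc-22 was lower at 24 h (-1.11).

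Of all genes measured, those nearest to mex-3 in both ratios against 0 h, by Euclidean distance over the 3 arrays, were T25G3.1 (distance 0.013), test-1 (0.017), F44G4.3 (0.018), blos-4 (0.021) and Y32B12B.2 (0.021). Such likeness is common on so few arrays: 70 genes lay within 0.1 of mex-3.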

How the data were processed

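Biotin-labelled RNA was made by 3′ in vitro transcription and hybridised to 1 array per group, per the labels' protocols. The authors deposited linear intensities that were already normalized. The submitters' processing notes name Affymetrix Expression Console 1.1, MAS5 and RMA, with no role or order. Median intensities were 101.8 (0 h), 100.2 (4 h) and 102.8 (24 h), and 18.0 to 27.8% of probe sets were identical between any 2 arrays.

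Of 22625 probe sets, 20766 belong to 1 gene, and 20701 of these were matched through the gene ID to current symbols of the WBcel235 gene table. The log2 of each deposited intensity plus 32 was used. A probe set was kept if its mean over the arrays was at least the median of all probe sets (7.09, or 103.9 in intensity). The brightest kept probe set stood for a gene, which left 8634 genes. With 1 array per group, 2-fold is the threshold and there are no p-values; the number of arrays limits the precision. Named genes are the members, up to 4 genes past 2-fold per list and comparison, and the 5 genes nearest to the member with the largest absolute 24 h ratio (mex-3); mex-1, pie-1, puf-3, puf-7, puf-8, spn-4, lin-12, lin-41, nos-2, lin-26, lag-1, mbk-2, rme-2 and pal-1 were named after their values were seen, for their ties to the members. The list genes cdc-42, epn-1, gld-3, ifet-1, kin-19 and unc-22 were also named after their values were seen, for another probe set past 2-fold. Members and lists were chosen with earlier results of these data known. Alternatives were other pseudocounts, normalizations, probe set choices, filters and thresholds. The scripts were tested on simulated arrays. Python 3.11.15, numpy 2.4.6, pandas 2.3.3 and statsmodels 0.14.6 were used.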

Additional observations from a re-analysis of the deposited data

How the results depend on the processing

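No paired analysis was possible because each group is 1 array. Of the counts and medians over the 10 genes, those at 4 h kept 0 genes past 2-fold under every alternative run. At 24 h against 0 h the 2 genes became 4 at 1.5-fold, 1 higher and 3 lower (14.4% and 17.3% of all genes). At 3-fold they became 0 (1.55% higher and 3.69% lower). With 100 added, 1 gene was lower (6.32% of all genes). So was 1 with the dimmest probe set (7.38%) and 1 with the mean of all probe sets (7.27%). Without _x_ and _s_ probe sets, 1 of the 6 genes left was lower (7.49%). With hybridisation control scaling, 1 was higher, glp-1, beside 21.97% of all genes. The count was 0 with quantile normalization (5.61% higher and 7.55% lower) and with a loess trend removed (5.26% and 7.93%). It was also 0 relative to the ID series median (5.18% and 7.81%), an alternative added after seeing the data. At 24 h against 4 h the count of 0 became 1 at 1.5-fold, lower, beside 9.24% of all genes. Medians moved by over 0.1 as follows. With the dimmest probe set they were 0.21 (4 h against 0 h), 0.14 (24 h against 0 h) and -0.029 (24 h against 4 h), under hybridisation control scaling 0.38, 0.31 and -0.0027, and without _x_ and _s_ probe sets -0.23, -0.65 and -0.49. With the mean of all probe sets they were 0.10 and -0.15 against 0 h, and relative to the ID series median -0.22 at 24 h against 0 h. The 24 h ratio of mex-3 turned to 0.047 with its dimmest probe set. The ratio of puf-11 at 24 h against 0 h ranged from -1.02 to -0.35 over the alternatives and stayed below 0, and that of glp-1 from 0.65 to 1.36. The cause of these shifts was not tested. Both 2-fold calls lay close to the threshold on the log2 scale, at -1.02 for mex-3 and -1.01 for puf-11.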

Other observations

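The difference between probe set series was also seen in the lists around these genes. At 24 h against 0 h the lower-series ratio was below the higher-series ratio in 10 of 11 further oocyte and maternal RNA regulators with both series (median difference -0.60), in 9 of 9 polarity and kinase genes (-0.71), in 5 of 5 oocyte maturation genes (-0.67) and in 4 of 4 Notch pathway genes (-0.64). Among 4 maternal messenger RNAs listed as targets it was so in 2, pal-1 (-0.92) and spn-4 (-0.61), while mes-3 (0.62) and skn-1 (0.31) had the opposite sign. The gene cyb-3, for a mitotic cyclin, was at 11823, 11823 and 9203 in the lower series and at 1237, 2352 and 3148 in the higher (difference -1.69). These genes were named after their values were seen.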
